A study of Mus musculus with 24 samples.

Results

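Ctgf, Cyr61, Amotl1, Amotl2, Axl, Crim1 and F3 are widely used as target genes of the Yap-Tead complex. These 7 genes were taken by name from the 28109 genes of the deposited table, and each name matched a row. Their expression was followed by RNA-seq in 24 libraries, with 2 biological replicates for each combination of cell type, siRNA and day. The C2C12 cells are an established line of mouse myoblasts derived from the C3H strain. The primary myoblasts (PMs) were isolated from wild type C57BL/6 mice of 3 to 4 weeks of age. Both cell types were transfected with a control siRNA (siControl, named for luciferase in the labels) or with siRNA pools against Tead1 and Tead4 together (siTead1/4). They were collected at day 0, which was 24 h after transfection and before the change to differentiation medium, and at days 3 and 6 of differentiation. Silencing by siRNA lowers an mRNA without removing it.

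In the Hippo pathway the kinases Stk3 and Stk4 activate Lats1 and Lats2, which phosphorylate the coactivators Yap and Taz (the genes Yap1 and Wwtr1) and hold them out of the nucleus. Nuclear Yap and Taz bind the Tead factors, which contact DNA through the MCAT element, and activate genes of growth, adhesion and matrix. In myoblasts Yap is known for its activity in proliferating cells, whereas Tead factors also act at muscle genes through MCAT elements. The 7 genes encode proteins of different roles. Ctgf and Cyr61 are secreted matrix-associated proteins of the Ccn family. Amotl1 and Amotl2 are angiomotin family scaffolds that bind Yap. Axl is a receptor tyrosine kinase for Gas6. Crim1 is a membrane protein with cysteine-rich repeats that binds bone morphogenetic proteins, and F3 is tissue factor, the membrane receptor that starts coagulation with factor VII.

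In the mm9 (NCBIM37) coordinates of the deposited table, Ctgf lies at chr10:24315248-24318489 on the plus strand and Cyr61 at chr3:145309935-145312949 on the minus strand. Amotl1 lies at chr9:14346410-14447973 on the minus strand and Amotl2 at chr9:102619002-102635748 on the plus strand. Axl lies at chr7:26542292-26573724 on the minus strand, Crim1 at chr17:78599588-78775932 on the plus strand and F3 at chr3:121426455-121437970 on the plus strand. The GENCODE annotation of the same build gives identical limits for all 7 genes. In that annotation 570 exonic bases of Ctgf are shared with the antisense lincRNA Gm15270 and 123 exonic bases of Crim1 with the antisense gene Fez2. The libraries do not keep the strand, so reads in these bases cannot be assigned to either partner with certainty.

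Promoter windows were examined for 6 of the 7 genes, in RefSeq sequences of the GRCm38.p6 build. The set of sequences used here held none for Ctgf, so its promoter was not examined. The 250 bases before the annotated start were searched on both strands for CATTCC, the core of the MCAT element bound by Tead factors, and for TGANTCA, the motif of the AP-1 factors that often share sites with Tead. These motifs do not overlap in the matches found. CATTCC or its complement GGAATG was present once in 4 of the 6 windows (Cyr61, Amotl2, Axl and Crim1), against 12.6% of 32851 promoters of the same length. The match started 103 bases before the start of Cyr61, 65 bases before that of Amotl2, 233 bases before that of Axl and 79 bases before that of Crim1. The window of F3 held no CATTCC and 2 matches to TGANTCA, which 6.75% of promoters held, and the window of Amotl1 held neither. A match describes the letters of the window and is not a measurement of binding. The stretches around the matches, up to 40 bases on either side, are shown because Tead silencing is read below at these genes. Capitals mark CATTCC or GGAATG in the first 4 stretches and TGANTCA in that of F3, each read 5′ to 3′ in the direction of the gene.
Cyr61, chr3:145650043-145650128, minus strand: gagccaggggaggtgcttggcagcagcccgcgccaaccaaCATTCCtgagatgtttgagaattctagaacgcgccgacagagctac
Amotl2, chr9:102717699-102717784, plus strand: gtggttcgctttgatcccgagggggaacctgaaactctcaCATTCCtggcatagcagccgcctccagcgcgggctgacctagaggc
Axl, chr7:25788921-25788983, minus strand: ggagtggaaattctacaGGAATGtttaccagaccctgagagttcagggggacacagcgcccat
Crim1, chr17:78200129-78200214, plus strand: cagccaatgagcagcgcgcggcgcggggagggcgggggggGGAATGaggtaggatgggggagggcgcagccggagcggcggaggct
F3, chr3:121723351-121723448, plus strand: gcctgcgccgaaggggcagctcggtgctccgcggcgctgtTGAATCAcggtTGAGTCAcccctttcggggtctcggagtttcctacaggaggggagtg

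Values are CPM, the counts of a gene relative to the library size, as CPM is usually defined, with TMM scaling over the 24 libraries. The 12 C2C12 libraries held 25453830 to 52784510 counts each (median 40147146) and the 12 PM libraries 32571583 to 51110723 (median 39204772). All 7 genes passed the filter on low counts in both cell types. F3 was the gene with the lowest counts, 12 in its lowest PM library. Calls required both a Benjamini-Hochberg adjusted p below 0.05 in edgeR and a log2 change beyond 1 in either direction. Differences are log2 fold changes with their standard error (SE). In these bulk libraries a lower level can come from fewer cells of a type or from less RNA per cell, and these cannot be told apart.

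The silencing itself was read first. Tead4 was lower in both siTead1/4 libraries than in both siControl libraries at all 3 days in both cell types, and Tead1 at all days except day 6 in C2C12 cells. In PMs Tead1 was 172 and 151 CPM in siControl and 69.8 and 50.1 CPM in siTead1/4 cells at day 0. The Tead1 change in PMs was -1.44 ± 0.31 (SE) at day 0 (adjusted p = 0.0211), -1.68 ± 0.31 at day 3 (adjusted p = 0.0107) and -1.10 ± 0.31 at day 6 (adjusted p = 0.143). The Tead4 change in PMs was -2.36 ± 0.17, -2.58 ± 0.17 and -1.75 ± 0.16 on these days, called each time. In C2C12 cells at day 0 Tead1 was 70.5 and 113 CPM in siControl against 28.9 and 4.5 CPM in siTead1/4 cells, so that silencing was uneven between the replicates (-2.46 ± 0.66, adjusted p = 0.168). Tead1 in C2C12 cells at day 3 was 95.6 and 151 CPM in siControl against 66.9 and 51.1 CPM in siTead1/4 cells, and was not called (-1.09 ± 0.63, adjusted p = 0.501). At day 6 Tead1 in C2C12 cells was 76.0 and 136 CPM in siControl against 70.6 and 77 CPM in siTead1/4 cells, and the groups overlapped. Tead4 in C2C12 cells was called at day 0 (-2.21 ± 0.37, adjusted p = 0.0360) and day 3 (-1.76 ± 0.35, adjusted p = 0.0425), and was -1.28 ± 0.34 at day 6 (adjusted p = 0.318).

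**Figure D1:**
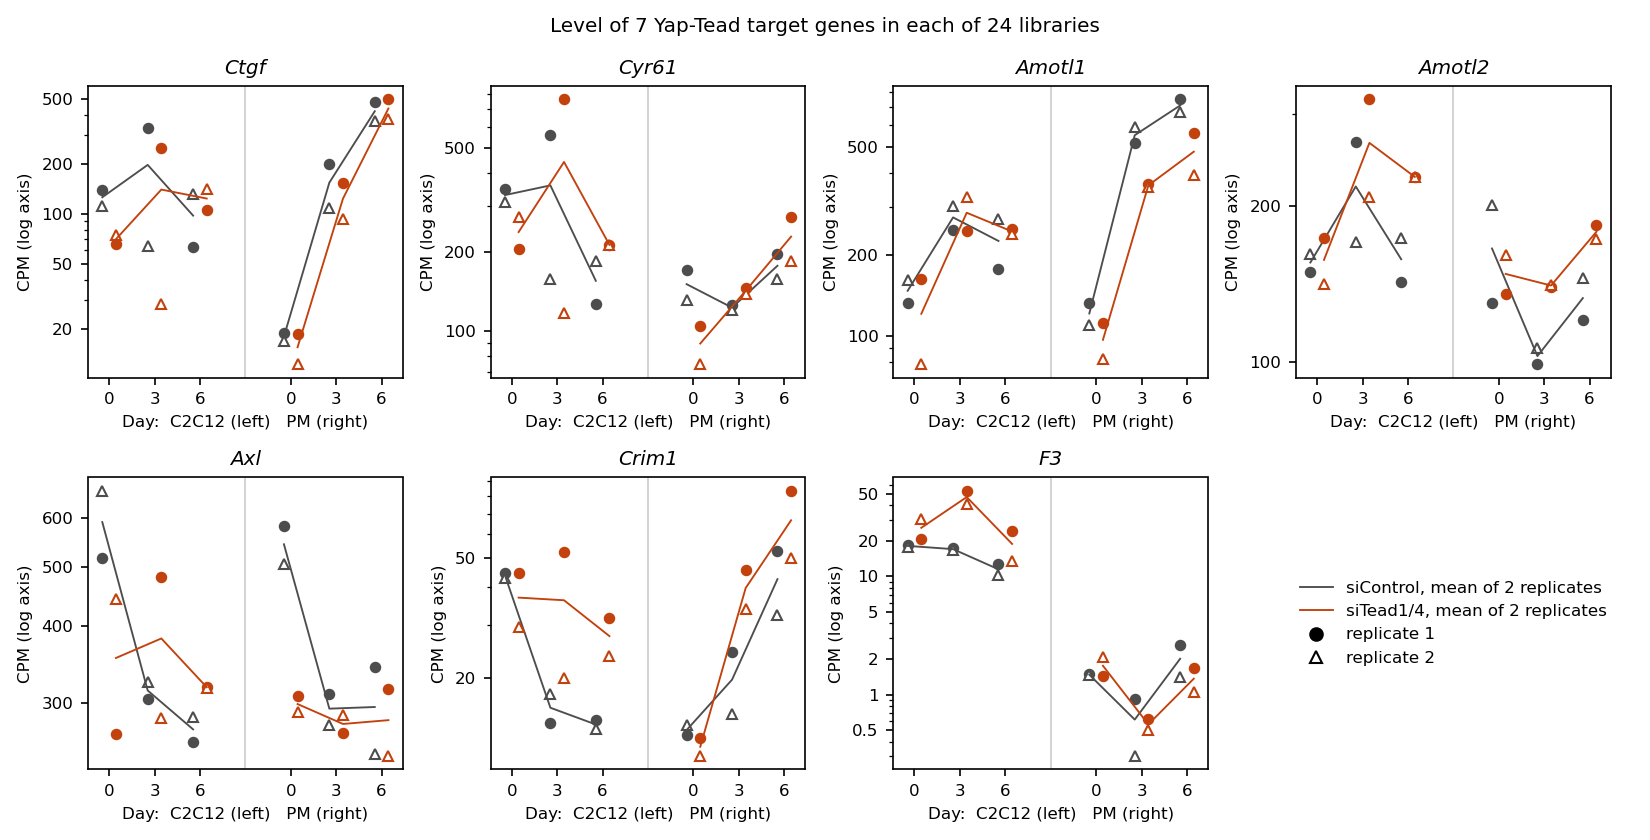
CPM of the 7 genes (vertical log axes) by day (horizontal axes), with C2C12 cells on the left and PMs on the right of each panel. Circles and triangles are replicates 1 and 2, lines join the means of 2 replicates, and siControl is grey and siTead1/4 orange. Ctgf and Amotl1 climb with the day in PMs under both siRNAs, F3 is low in PMs throughout, and replicate 1 of C2C12 cells at day 3 stands above replicate 2 for Ctgf and Cyr61 under both siRNAs.

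None of the 7 genes was called after Tead1/Tead4 silencing by edgeR with the 12 filtered libraries of a cell type, TMM scaling and no replicate block, at any of the 3 days. With a replicate block edgeR called Crim1 in PMs at day 3 (1.02, adjusted p = 0.00485), and other settings called F3 or Crim1 at day 3, as given with these genes. In C2C12 cells 0.438% of all tested genes were called at day 0, 1.27% at day 3 and 0.0457% at day 6, and in PMs 2.6%, 3.3% and 0.743%. With shares as low as these, 7 genes without a call say little about the group. At an unadjusted p under 0.05 there were 1, 2 and 2 of the 7 genes in C2C12 cells at days 0, 3 and 6, and 2, 3 and 2 in PMs. By that rule 10.5%, 14.2% and 6.95% of all tested genes passed in C2C12 cells and 23.3%, 22.7% and 11.9% in PMs. DESeq2 called 1 of the 7, F3 in C2C12 cells at day 3, and none in the other comparisons. Over the genes to which it gave an adjusted p, DESeq2 called 1.84%, 4.21% and 0.872% in C2C12 cells and 3.17%, 3.83% and 1.51% in PMs. With the adjusted p alone, at any fold, 0.444%, 1.35% and 0.0457% of genes passed in C2C12 cells and 7.72%, 7.33% and 1.26% in PMs. By that rule 1 of the 7 passed, Axl in PMs at day 0. The median of the 7 genes was -0.29, 0.26 and 0.46 in C2C12 cells at days 0, 3 and 6, beside 0.02, 0.01 and 0.01 over all tested genes, and -0.23, -0.09 and 0.05 in PMs beside -0.01, 0.01 and 0.00.

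**Figure D2:**
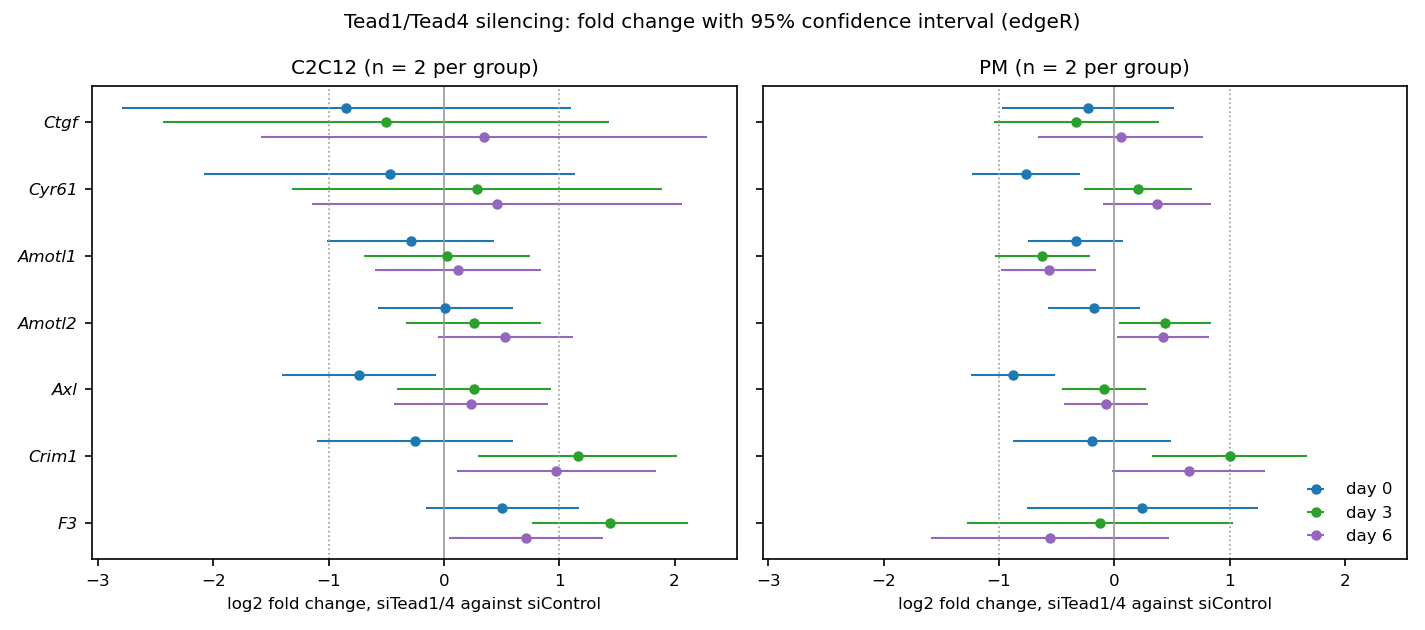
Log2 fold change of siTead1/4 against siControl (horizontal axis) for the 7 genes in C2C12 cells (left) and PMs (right). Points are edgeR estimates from 2 against 2 libraries and bars are 95% confidence intervals, with dotted lines at the fold threshold of 1. The intervals of Ctgf and Cyr61 are wider in C2C12 cells than in PMs, and F3 at day 3 in C2C12 cells is the point farthest above 0.

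Of the secreted Ccn proteins, Ctgf was 140 and 112 CPM in siControl and 65.7 and 74.7 CPM in siTead1/4 C2C12 cells at day 0. Both silenced libraries were lower there, with a change of -0.85 ± 0.88 (95% confidence interval -2.79 to 1.10). At day 3 it was 332 and 64.1 CPM in siControl against 252 and 28.3 CPM in siTead1/4 C2C12 cells. Replicate 1 exceeded replicate 2 by 5.18-fold in siControl and by 8.90-fold in siTead1/4 cells, more than the difference between the siRNAs. At day 6 Ctgf was 62.7 and 132 CPM in siControl against 106 and 141 CPM in siTead1/4 C2C12 cells, and the groups overlapped. In PMs Ctgf was 19.1 and 17 CPM in siControl against 18.8 and 12.2 CPM in siTead1/4 cells at day 0. It was 201 and 108 CPM against 155 and 92.8 CPM at day 3, and 474 and 363 CPM against 495 and 375 CPM at day 6. The groups overlapped at each day in PMs, with changes of -0.23 ± 0.34, -0.33 ± 0.32 and 0.05 ± 0.32. Within each replicate number the silenced PM library was lower at days 0 and 3 and higher at day 6.

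Cyr61 had 349 and 311 CPM in siControl and 206 and 271 CPM in siTead1/4 C2C12 cells at day 0, without overlap (-0.47 ± 0.72). At day 3 it had 561 and 158 CPM against 766 and 117 CPM, again with replicate 1 far above replicate 2 under both siRNAs. At day 6 it had 127 and 184 CPM against 213 and 213 CPM (0.46 ± 0.72, adjusted p = 0.958). In PMs at day 0 Cyr61 had 171 and 131 CPM in siControl and 105 and 74.6 CPM in siTead1/4 cells. Both silenced PM libraries were below both control libraries, with -0.76 ± 0.21 and an adjusted p of 0.0552. At day 3 the values were 126 and 120 CPM against 146 and 139 CPM, and at day 6 197 and 157 CPM against 273 and 185 CPM. The estimates at days 3 and 6 were above 0 (0.20 ± 0.21 and 0.37 ± 0.21), and neither passed the test.

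Of the angiomotin family scaffolds, Amotl1 was 515 and 590 CPM in siControl and 366 and 355 CPM in siTead1/4 PMs at day 3. It was 750 and 673 CPM against 565 and 395 CPM at day 6. Both silenced libraries were lower than both control libraries at each of these days, with -0.62 ± 0.19 (adjusted p = 0.0716) and -0.57 ± 0.19 (adjusted p = 0.219). At day 0 Amotl1 was 132 and 110 CPM in siControl against 111 and 82.3 CPM in siTead1/4 PMs (-0.33 ± 0.19), lower in the silenced library at each replicate number. In C2C12 cells Amotl1 was 133 and 161 CPM against 163 and 78.6 CPM at day 0, 247 and 302 CPM against 245 and 326 CPM at day 3, and 177 and 272 CPM against 248 and 238 CPM at day 6. The groups overlapped at each day in C2C12 cells.

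Amotl2 was 99.1 and 106 CPM in siControl and 140 and 141 CPM in siTead1/4 PMs at day 3, and 121 and 145 CPM against 184 and 173 CPM at day 6. Both silenced libraries were higher than both control libraries on these days, opposite in sign to Amotl1, with 0.44 ± 0.18 (adjusted p = 0.176) and 0.43 ± 0.18 (adjusted p = 0.381). At day 0 Amotl2 was 130 and 201 CPM in siControl against 135 and 161 CPM in siTead1/4 PMs, with overlap. In C2C12 cells it was 149 and 162 CPM against 173 and 142 CPM at day 0 and 265 and 171 CPM against 321 and 208 CPM at day 3. At day 6 it was 143 and 173 CPM in siControl against 228 and 227 CPM in siTead1/4 C2C12 cells, without overlap (0.53 ± 0.26, adjusted p = 0.779).

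The receptor Axl was 582 and 506 CPM in siControl and 308 and 289 CPM in siTead1/4 PMs at day 0. Its estimate was -0.88 ± 0.16 with an adjusted p of 0.0121, a fold under the threshold. In the other silencing comparisons, with the 12 libraries of a cell type, TMM scaling, filtered counts and no block, the adjusted p of each of the 7 genes was above 0.05 in edgeR. In C2C12 cells at day 0 Axl was 517 and 665 CPM in siControl and 267 and 443 CPM in siTead1/4 cells, also without overlap, at -0.74 ± 0.30 (adjusted p = 0.420). At day 3 Axl was 304 and 324 CPM in siControl against 480 and 283 CPM in siTead1/4 C2C12 cells, and 310 and 276 CPM against 268 and 286 CPM in PMs. At day 6 it was 259 and 284 CPM against 319 and 317 CPM in C2C12 cells, and 343 and 248 CPM against 316 and 246 CPM in PMs. The lower level of Axl in silenced cells was thus seen at day 0, when the siControl level was highest. The difference between the effect at day 3 and the effect at day 0 was 1.0 ± 0.43 in C2C12 cells (adjusted p = 0.411) and 0.78 ± 0.23 in PMs (adjusted p = 0.170). Of 10 proliferation genes, 0 in PMs (median -0.47) and 1 in C2C12 cells (median -0.25) had estimates above 0 after silencing at day 0, without a call. Their part in the Axl and Cyr61 values was not tested.

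Crim1 had 14.2 and 17.7 CPM in siControl and 52.3 and 20.1 CPM in siTead1/4 C2C12 cells at day 3. Both silenced libraries were higher, with replicate 1 far above replicate 2, and the estimate was 1.16 ± 0.39 (adjusted p = 0.191). At day 6 it had 14.5 and 13.6 CPM against 31.5 and 23.6 CPM (0.97 ± 0.39, adjusted p = 0.627). In PMs at day 3 Crim1 had 24.4 and 15.2 CPM in siControl and 45.6 and 33.9 CPM in siTead1/4 cells, at 1.0 ± 0.30 (adjusted p = 0.0756). At day 6 it had 52.6 and 32.4 CPM against 83.3 and 49.8 CPM, with overlap (0.65 ± 0.30), and the silenced library was the higher at each replicate number. At day 0 the values were 44.6 and 42.8 CPM against 44.4 and 29.4 CPM in C2C12 cells and 12.9 and 14.0 CPM against 12.6 and 11.1 CPM in PMs, with estimates of -0.25 ± 0.38 and -0.19 ± 0.31. The PM estimate at day 3 was called when genes of low counts were kept in the fit (adjusted p = 0.000766), with a replicate block (adjusted p = 0.00485) and with a replicate block within each day (1.02, adjusted p = 4.38e-06). The C2C12 estimate at day 3 was called without the filter on low counts (1.16, adjusted p = 0.00119).

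F3 in C2C12 cells at day 3 was 17.4 and 16.7 CPM in siControl and 53.1 and 40.9 CPM in siTead1/4 cells. The groups lay far apart relative to their spread, at 1.44 ± 0.30 with a 95% confidence interval of 0.77 to 2.11, and the adjusted p of 0.0514 just missed the threshold. F3 was called in DESeq2 (1.43, adjusted p = 0.000627), with RLE scaling (adjusted p = 0.0494), without a filter on low counts (adjusted p = 2.59e-05), with a replicate block within each day (adjusted p = 0.0431) and with all 24 libraries in a single fit (adjusted p = 0.0233). In the same comparison all 10 muscle differentiation genes had estimates below 0, with a median of -0.90 and 1 call, and their summed level was 19438 and 22336 CPM in siControl against 7967 and 10570 CPM in siTead1/4 C2C12 cells. Of 6 fibroblast markers tested 5 had estimates below 0, with a median of -2.15 and no call, and the marker sums were 422 and 191 CPM in siControl against 81.3 and 50.8 CPM in siTead1/4 cells. The part of these differences in the F3 and Crim1 values was not tested. At day 0 F3 was 18.5 and 17.8 CPM against 20.9 and 30.7 CPM (0.51 ± 0.30), and at day 6 12.7 and 10.3 CPM against 24.3 and 13.4 CPM (0.71 ± 0.30). Both silenced libraries were thus higher at each of the 3 days in C2C12 cells. In PMs F3 was 1.48 and 1.47 CPM in siControl against 1.43 and 2.07 CPM in siTead1/4 cells at day 0, 0.926 and 0.303 CPM against 0.622 and 0.498 CPM at day 3, and 2.62 and 1.40 CPM against 1.67 and 1.05 CPM at day 6. The PM groups overlapped at each day, on counts of 12 to 105 per library.

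The difference of the silencing effect between the cell types was tested over all 24 libraries. None of the 7 genes was called by edgeR with filtered counts or by DESeq2, where edgeR called 0.00591% of genes at day 0, 1.25% at day 3 and 0.0354% at day 6, and DESeq2 0.193%, 3.29% and 0.386%. F3 was the only gene of the 7 with an unadjusted p under 0.05, with a PM effect below the C2C12 effect by -1.57 ± 0.61 at day 3 (adjusted p = 0.257) and by -1.26 ± 0.55 at day 6 (adjusted p = 0.842). Without the filter on low counts edgeR called F3 at day 3 (-1.54, adjusted p = 0.0467). The shares of all genes under that p were 4.28%, 13% and 5.41% at days 0, 3 and 6. The difference between the effects at day 3 and day 0 was likewise called by edgeR with filtered counts and no block, and by DESeq2, for none of the 7 genes in either cell type, with 0% of genes called by edgeR in C2C12 cells and 0.328% in PMs, and 2.29% and 1.96% by DESeq2. Crim1 in PMs was called for this difference without a filter on low counts (1.20, adjusted p = 0.0171), with a replicate block (1.22, adjusted p = 0.0355) and with a replicate block within each day (1.21, adjusted p = 0.000145), and Crim1 in C2C12 cells without the filter (1.44, adjusted p = 0.0116). At an unadjusted p under 0.05 there were 2 of the 7 in C2C12 cells (Axl and Crim1) and 4 in PMs (Cyr61, Amotl2, Axl and Crim1). Of all tested genes 11.4% in C2C12 cells and 13.4% in PMs were under that p. The estimates were above 0 for all 7 genes in C2C12 cells and for 4 of the 7 in PMs, where Ctgf (-0.10), Amotl1 (-0.29) and F3 (-0.37) were below 0. The day 3 and day 0 effects come from separate libraries within each cell type.

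Over differentiation in siControl cells Ctgf and Amotl1 rose in PMs on both days, Crim1 rose in PMs at day 6 and fell in C2C12 cells on both days, and Axl fell in C2C12 cells at day 6. In C2C12 cells 1 of the 7 was called at day 3 against day 0 and 2 at day 6, beside 28.7% and 31.1% of all tested genes. In PMs 3 of the 7 were called at each day, beside 32.3% and 35.5%. By the adjusted p alone, 2 of the 7 passed on each day in C2C12 cells, where 39.6% and 43% of genes did, and 5 and 4 in PMs, where 58.8% and 61.4% of genes did. The shares of the 7 genes were thus not far from those of all genes. The medians of the 7 were 0.08 and -0.70 in C2C12 cells at days 3 and 6, beside -0.01 on both days over all tested genes, and -0.35 and 0.38 in PMs, beside 0.01 and 0.03. Each cell type's comparisons share the day 0 libraries.

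**Figure D3:**
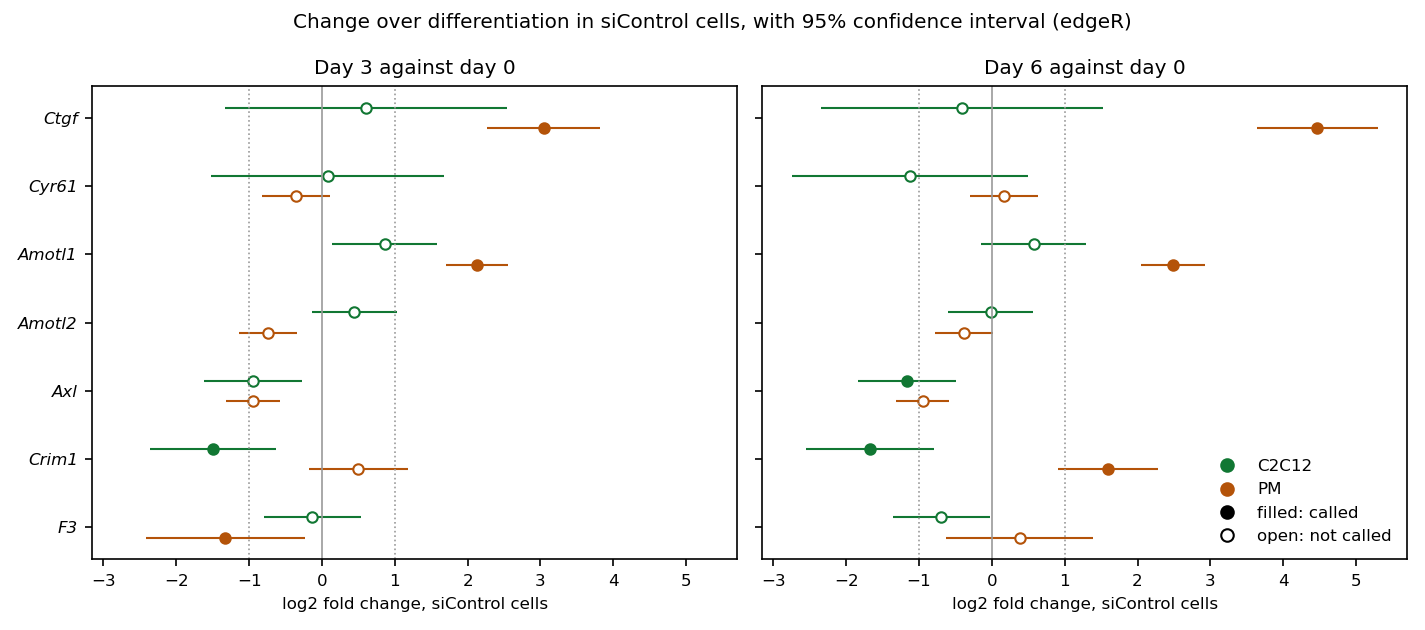
Log2 fold change from day 0 in siControl cells (horizontal axis) for the 7 genes at day 3 (left) and day 6 (right). Points are edgeR estimates from 2 against 2 libraries, green for C2C12 cells and brown for PMs, filled where called, bars are 95% confidence intervals and dotted lines mark the fold threshold of 1. Ctgf and Amotl1 are far to the right in PMs on both days, and Crim1 lies on opposite sides of 0 in the cell types at day 6.

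Ctgf showed the largest change of the 7 genes, from 19.1 and 17 CPM at day 0 to 201 and 108 CPM at day 3 and 474 and 363 CPM at day 6 in siControl PMs. The 3 days did not overlap, and Ctgf rose by 3.04 ± 0.35 at day 3 (adjusted p = 3.43e-05) and by 4.47 ± 0.37 at day 6 (adjusted p = 3.09e-06), or 22.1-fold. In siControl C2C12 cells the estimates were 0.61 ± 0.87 and -0.41 ± 0.87, from replicates that differed by up to 5.18-fold. Amotl1 rose in PMs by 2.13 ± 0.19 at day 3 (adjusted p = 6.16e-06) and by 2.49 ± 0.20 at day 6 (adjusted p = 2.03e-06), or 5.6-fold, and in C2C12 cells the estimates were 0.86 ± 0.33 (adjusted p = 0.0581) and 0.57 ± 0.32. Crim1 moved in opposite directions. In PMs it rose by 1.59 ± 0.31 at day 6 (adjusted p = 0.00114), whereas in C2C12 cells it fell by 1.49 ± 0.39 at day 3 (adjusted p = 0.0124) and by 1.68 ± 0.39 at day 6 (adjusted p = 0.00666). The C2C12 fall at day 3 was no longer called without replicate 1 of siControl day 0 (-1.45, adjusted p = 0.0521) or without replicate 1 of siControl day 3 (-1.33, adjusted p = 0.0892).

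Axl was lower at days 3 and 6 than at day 0 in both cell types, in every siControl library. In C2C12 cells it was called at day 6, at -1.16 ± 0.30 (adjusted p = 0.0113), and not at day 3, at -0.95 ± 0.30 (adjusted p = 0.0297). Its call at day 6 was lost without replicate 1 of siControl day 6 (-1.10, adjusted p = 0.0754) or replicate 2 of siControl day 0 (-0.96, adjusted p = 0.0771). In PMs the change of Axl was -0.95 ± 0.17 on both days (adjusted p = 0.000599 and 0.000536), just under the fold threshold. At day 3 it was beyond that threshold without replicate 1 of siControl day 3 (-1.03) or replicate 2 of siControl day 0 (-1.05). At day 6 it was so without replicate 1 of siControl day 6 (-1.20) or replicate 2 of siControl day 0 (-1.05). F3 was called lower in PMs at day 3, at -1.33 ± 0.49 (adjusted p = 0.0385), on counts of 33 and 12 per library. This call was lost without either replicate of siControl day 0 (-1.31 and -1.34, adjusted p = 0.105 and 0.0935) and without replicate 2 of day 3 (-0.72, adjusted p = 0.238), and with the 4 libraries alone (-1.32, adjusted p = 0.0619). Amotl2 had -0.74 ± 0.18 in PMs at day 3 (adjusted p = 0.00486), a fold under the threshold, and -1.02 without replicate 1 of siControl day 0. Cyr61 fell short of the threshold in C2C12 cells at day 6, at -1.13 ± 0.73 (adjusted p = 0.240), although both day 6 libraries lay below both day 0 libraries. It was called there without a filter on low counts (-1.12, adjusted p = 0.000146), with a replicate block within each day (-1.15, adjusted p = 0.0177) and with the 4 libraries alone (-1.09, adjusted p = 0.00731).

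The change from day 0 was compared between the cell types in siControl cells, a comparison added after the data were seen. The muscle genes, whose level at day 0 was higher in PMs, differed in the same comparison, with 9 of 10 called lower at day 3 and 8 at day 6, and their part was not tested. At day 6 it was called for Ctgf, at 4.91 ± 1.08 (adjusted p = 0.00464), for Amotl1, at 1.94 ± 0.41 (adjusted p = 0.00328), and for Crim1, at 3.29 ± 0.54 (adjusted p = 0.000395), each higher in PMs. These 3 of the 7 stand beside 12.7% of all tested genes, and the count was 3 in each fit that left out 1 library. At day 3 it was called for Amotl1 (1.29 ± 0.41), Amotl2 (-1.17 ± 0.33) and Crim1 (2.01 ± 0.53), beside 11.2% of genes. At day 3 the count fell to between 0 and 2 when any 1 library was left out, with 0 without PM siControl day 0 replicate 2. The genes called then were not always these 3. Without C2C12 siControl day 3 replicate 1 the single call was Ctgf (4.08, adjusted p = 0.0250), and without PM siControl day 3 replicate 1 it was F3 (-2.18, adjusted p = 0.0427). Ctgf at day 3 was 2.45 ± 1.04 (adjusted p = 0.141), and was also called without a filter on low counts (2.42, adjusted p = 0.000181) and with a replicate block within each day (2.80, adjusted p = 0.000134).

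Other measures moved with these rises in PMs. The 8 fibroblast markers summed to 61.5 and 52.2 CPM in siControl PMs at day 0, 149 and 129 CPM at day 3 and 312 and 259 CPM at day 6. The most abundant of them was Col15a1, a collagen, at 145 and 151 CPM at day 6, and 5 of the 7 tested markers were called higher at day 6. Tcf21 was at 0 in all 6 libraries and Dpt in 1 of the day 0 libraries, and Dpt had a mean of 1.06 CPM at day 6. In siControl C2C12 cells the same markers summed to 74.8 and 88.7 CPM at day 0, 422 and 191 CPM at day 3 and 411 and 93.7 CPM at day 6, led by Ly6a and Dcn. Their part in the Ctgf, Amotl1 and Crim1 values was not tested. All 7 markers of myogenic cells were detected in each library of both cell types, and in siControl PMs 2 were called higher and 3 lower at days 3 and 6. Of the 6 mural markers 3 were called higher and 2 lower in siControl PMs on each of these days (medians 1.16 and 1.65). The part of these markers was not tested either. Of 10 muscle differentiation genes 9 were called higher at days 3 and 6 in C2C12 cells, and 7 higher and 1 lower in PMs. All 10 proliferation genes were called lower at days 3 and 6 in both cell types.

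The levels in siControl cells were compared between PMs and C2C12 cells at each day, where strain, culture, stage of differentiation and cell type cannot be told apart. At day 0 the 10 muscle genes already summed to 12823 and 11830 CPM in PMs against 1276 and 1078 CPM in C2C12 cells, and 9 of them were called higher in PMs (median 6.37). Of the markers of other cell types 4 of 6 endothelial genes, with sums of 14.8 and 7.27 CPM in PMs, and 2 of 5 Schwann cell genes, with sums of 17.4 and 10.8 CPM, were called higher in PMs at day 0. Of the mural markers 2 were called higher and 2 lower in PMs, with sums of 420 and 361 CPM against 208 and 205 CPM in C2C12 cells, of the fibroblast markers 2 higher and 2 lower, and of the macrophage markers 1 lower. Of the 6 endothelial markers 5 were called higher in PMs at day 3 and 2 at day 6. Of the fibroblast markers 2 were called higher and 5 lower in PMs at day 3, and 2 higher and 1 lower at day 6. The part of these markers in the values of the 7 genes was not tested. At day 0, 3 of the 7 genes were called, all lower in PMs, beside 26.8% of all tested genes. Ctgf was lower by -2.80 ± 0.78 (adjusted p = 0.00835), Crim1 by -1.70 ± 0.38 (adjusted p = 0.00184) and F3 by -3.62 ± 0.41 (adjusted p = 2.01e-06). At day 3, 4 were called, beside 29.8% of genes, with Amotl1 higher in PMs (1.01 ± 0.29) and Cyr61 (-1.55 ± 0.60), Amotl2 (-1.08 ± 0.24) and F3 (-4.80 ± 0.45) lower. Without C2C12 siControl day 3 replicate 1 only F3 of these stayed called, and Cyr61 was -0.39 (adjusted p = 0.670). The Cyr61 call was also lost without either PM siControl day 3 replicate, where the difference was of the same size (-1.60 and -1.52, adjusted p = 0.135 and 0.146), with a replicate block (-1.40, adjusted p = 0.0519) and with at least 10 counts in every library (-1.49, adjusted p = 0.0556). Without PM siControl day 3 replicate 2, Amotl2 and F3 stayed called. The Amotl1 call at day 3 was also lost without a filter on low counts, where its difference of 0.99 was just under the fold threshold (adjusted p = 0.000196). At day 6, 4 were called, beside 24.9% of genes, with Ctgf (2.1 ± 0.75, adjusted p = 0.0363), Amotl1 (1.66 ± 0.29) and Crim1 (1.60 ± 0.38) higher in PMs and F3 lower (-2.51 ± 0.39). The day 0 call of Ctgf was lost without either PM replicate at a similar size of the difference (-2.92 and -2.75, adjusted p = 0.0501 and 0.0631). Its day 6 call was lost without any 1 of the 4 libraries, with differences from 1.64 to 2.73 and adjusted p from 0.0525 to 0.218. Cyr61 at day 0 was -1.13 ± 0.59 (adjusted p = 0.143) and was called without a filter on low counts (adjusted p = 0.00272) and with a replicate block within each day (adjusted p = 0.00146). F3 was called lower in PMs at all 3 days.

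Per length, in CPM per kb of the gene length in the table, the order of the 7 genes differed between the cell types. In siControl C2C12 cells at day 0 the level of Cyr61 was 163 ± 13.5 (SD, n = 2) and that of Axl 134 ± 23.7, which did not differ beyond their spread. Ctgf had 44.1 ± 6.96, Amotl2 30.0 ± 1.67, Amotl1 15.5 ± 2.13, F3 9.67 ± 0.24 and Crim1 7.29 ± 0.22 CPM per kb. In siControl PMs at day 0 Axl had the highest level, 123 ± 12.2 CPM per kb, followed by Cyr61 at 74.4 ± 13.8 and Amotl2 at 31.9 ± 9.67. Ctgf came after Amotl1 in PMs, at 6.31 ± 0.51 against 12.8 ± 1.66 for Amotl1, and Crim1 (2.25 ± 0.13) and F3 (0.79 ± 0.01) were lowest. At day 6 in siControl PMs Ctgf had moved to the top at 146 ± 27.4 CPM per kb, and Cyr61 (87.4 ± 13.9), Amotl1 (75.0 ± 5.74) and Axl (66.8 ± 15.3) followed, with neighbours among these 3 within their spread.

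The 7 genes did not vary as a group. Over the 12 PM libraries the Pearson r of log2 CPM was 0.94 between Ctgf and Amotl1 and 0.89 between Ctgf and Crim1, and over the 12 C2C12 libraries it was 0.02 and 0.13. Ctgf and Cyr61, both of the Ccn family, had 0.85 in C2C12 cells and 0.71 in PMs. Amotl1 and Amotl2, both angiomotin family members, had 0.59 in C2C12 cells and -0.37 in PMs. These values describe libraries that share days, siRNAs and replicates and are not independent. Over the 24 libraries the gene most like Ctgf was the collagen Col16a1 (r = 0.92), and the gene most like Amotl1 was the insulin receptor Insr (r = 0.96). The gene most like F3 was Akr1c13 (r = 0.97), followed by Snx9 and Cd14 (r = 0.97 each), and that most like Crim1 was Nfatc1 (r = 0.84), followed by Nuak2 (r = 0.81). The highest r was 0.75 for Cyr61 (with Tmem106a), 0.85 for Amotl2 (with Tmem168) and 0.84 for Axl (with Isy1), among 16925 genes searched.

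**Figure D4:**
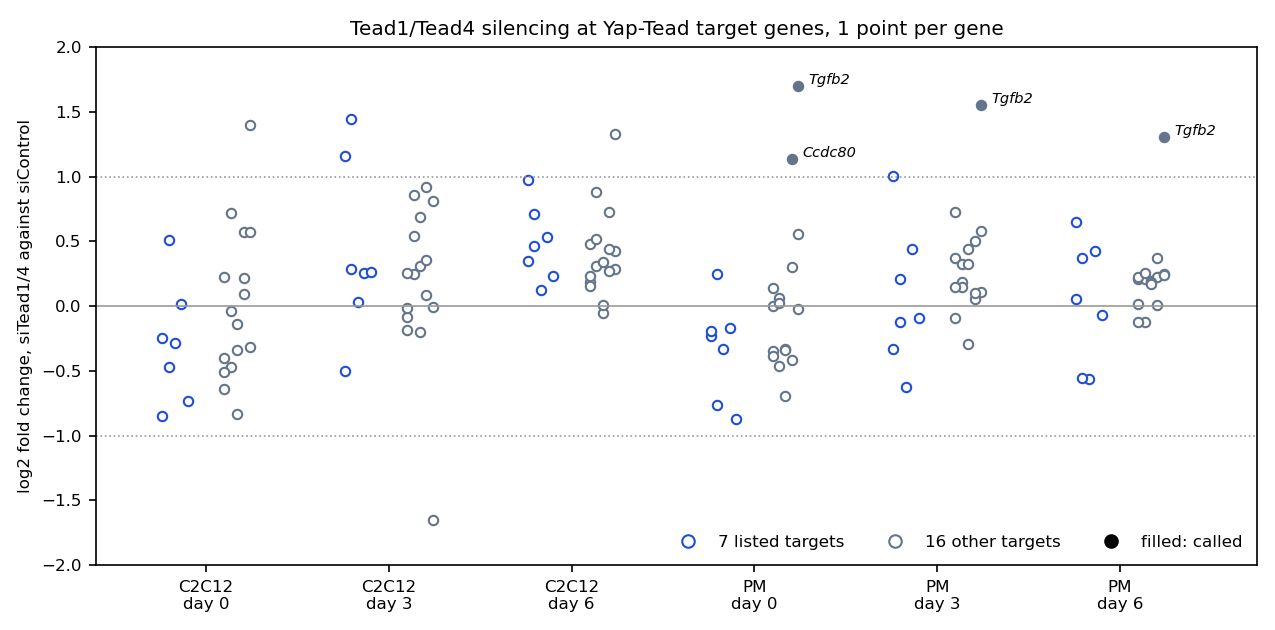
Log2 fold change of siTead1/4 against siControl (vertical axis) in the 6 silencing comparisons (horizontal axis), with 1 point per gene for the 7 genes (blue) and for 16 other Yap-Tead targets (grey). Filled points are called. No point of the 7 is filled, and the filled points of the other targets are Tgfb2 in PMs at all 3 days and Ccdc80 at day 0.

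The 7 genes were set beside 16 other genes known as Yap-Tead targets. None of the 16 was called lower after silencing in any of the 6 comparisons by edgeR, and none was called higher in C2C12 cells. In PMs 2 were called higher at day 0 and 1 at days 3 and 6. Tgfb2, a secreted growth factor, rose by 1.70 ± 0.26 at day 0 (adjusted p = 0.00529), 1.55 ± 0.26 at day 3 (adjusted p = 0.00684) and 1.30 ± 0.26 at day 6 (adjusted p = 0.0445). Its mean level was 36.3 CPM in siControl against 118 CPM in siTead1/4 PMs at day 0. In C2C12 cells the Tgfb2 estimates were also above 0, at 1.4 ± 0.27 (adjusted p = 0.0582), 0.81 ± 0.27 (adjusted p = 0.185) and 1.33 ± 0.27 (adjusted p = 0.143), and were not called. Ccdc80, a matrix protein, rose by 1.14 ± 0.21 at day 0 (adjusted p = 0.0114). The median of the 16 was -0.09, 0.25 and 0.33 in C2C12 cells at days 0, 3 and 6 and -0.01, 0.26 and 0.21 in PMs. As for the 7 genes, the medians at day 0 were thus below those at day 3 in C2C12 cells and in PMs, which was not tested.

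Of 24 Hippo pathway genes and cofactors tested, 3 were called lower in C2C12 cells at day 0. They were Tead4, a target of the siRNAs, Wwtr1 (-1.01 ± 0.17, adjusted p = 0.0399), which encodes Taz, and Mob1b (-1.14 ± 0.19, adjusted p = 0.0339), a Lats cofactor. Tead4 alone of them was called at day 3 in C2C12 cells, and none at day 6. Of all tested genes 67, or 0.438%, were called in C2C12 cells at day 0. With the 4 libraries of that comparison alone no gene was called, so that the 3 calls at day 0 were lost. In PMs Tead1 and Tead4, the targets of the siRNAs, were the 2 called lower at day 0. Of all tested genes 2.6% were called in PMs at day 0, 3.3% at day 3 and 0.743% at day 6. At day 3 Tead3 (1.16 ± 0.20), Vgll2 (1.11 ± 0.19), a Tead cofactor, and Jub (1.13 ± 0.17), which encodes the Lats inhibitor Ajuba, rose in PMs. Tead1, Tead4 and Wwc1 (-1.49 ± 0.18) fell at that day. At day 6 Tead3 (1.01 ± 0.20) and Jub (1.03 ± 0.17) rose and Tead4 and Wwc1 (-1.09 ± 0.18) fell. Yap1 was called in none of the 6 comparisons. Among 16 relatives and partners of the 7 genes, of which 13 were tested in C2C12 cells and 15 in PMs, the Ccn family member Nov fell in C2C12 cells at day 3 (-4.35 ± 0.81, adjusted p = 0.0346), from a mean of 13.6 to 0.68 CPM, and no other was called.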

How the data were processed

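RNA-seq libraries of polyadenylated RNA, without strand information, were compared in 12 groups of 2 biological replicates. The submitters' processing notes name CASAVA 1.8.2, TopHat2 2.0.10, Bowtie2 2.1.0, HTSeq 0.6.1 and DESeq2 1.8.1, and the mm9 build. The authors deposited raw read counts per gene, with the gene length of the table used for values per kb. The normalized columns and 36 columns of 12 libraries that are not listed were not used here. The members and lists were chosen with earlier results of these data known.

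The tests used edgeR 4.0.16 in R 4.3.3 (filterByExpr, TMM, glmQLFit, glmQLFTest, 2-sided), with 1 mean per group. Silencing and differentiation were fitted on the 12 libraries of a cell type, comparisons between cell types on all 24. P-values were adjusted by Benjamini-Hochberg over all tested genes. The fits were also run on simulated data, and no result of that is used here. Levels are CPM with the SD of 2 replicates. DESeq2 1.42.0 and other scalings, filters, thresholds, blocks and left-out libraries were alternatives. Replicates differed by more than sampling noise in each group, and with 2 per group p-values rest on spread pooled across genes and groups. Of 2 rows named Tead1, that with nearly all of the counts was used.

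The genes named are the 7 targets, Tead1, Tead4, called genes of fixed lists (16 other Yap-Tead targets, 25 Hippo genes, 16 relatives and partners, 10 muscle and 10 proliferation genes, and markers of myogenic, fibroblast, endothelial, macrophage, Schwann and mural cells) and the 3 genes most like each target by Pearson r of log2 CPM (prior count 2). Col15a1, Ly6a, Tcf21, Dpt and Yap1 were named after their values were seen. Promoter sequences are from RefSeq.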

Additional observations from a re-analysis of the deposited data

Results flagged for a closer look

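In a comparison added after the data were seen, the change from day 0 to day 6 in siControl cells differed between PMs and C2C12 cells by the test of the difference itself for Ctgf (4.91 on the log2 scale, adjusted p = 0.00464 in edgeR), Amotl1 (1.94, adjusted p = 0.00328) and Crim1 (3.29, adjusted p = 0.000395), each higher in PMs. At day 3 it differed for Amotl1 (1.29, adjusted p = 0.0444), Amotl2 (-1.17, adjusted p = 0.0249) and Crim1 (2.01, adjusted p = 0.0173). Of 8 fits at day 3 that each left out 1 library, the Amotl1 call was lost in all 8 (adjusted p from 0.0630 to 0.162), the Amotl2 call in 6 and the Crim1 call in 4, while the differences in the fits that lost the call were 1.15 to 1.44 for Amotl1, -1.22 to -0.82 for Amotl2 and 1.62 to 2.07 for Crim1. No explanation of these differences was tested.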

How the results depend on the processing

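Of 1883 alternative values of the 7 genes, 1807 kept their side of the threshold, 41 lost a call and 35 gained one. Most of those that kept their side were not called in the main fit either, and a call could be lost only where the main fit had one. Some of the gains, for Axl and Amotl2, came with the adjusted p alone, at any fold. No called value changed sign, and 98 values that were not called did. After silencing in C2C12 cells at day 3, the count of called members was 1 in place of 0 with DESeq2, RLE scaling, a replicate block within each day or all 24 libraries (F3 each time), and 2 without a filter on low counts (F3 and Crim1). In PMs at day 3 it was 1 (Crim1) without the filter, with a replicate block or with a replicate block within each day, and the same 3 settings gave 1 (Crim1) for the day 3 against day 0 effect in PMs. Without the filter it was 1 for that effect in C2C12 cells (Crim1) and 1 for the difference between cell types at day 3 (F3). At any fold it was 1 after silencing in PMs at day 0 (Axl), 2 over differentiation at day 3 in C2C12 cells and 5 in PMs. The 4 libraries of a comparison alone, a minimum of 10 counts in every library and the other settings left the silencing counts at 0.

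Leaving out 1 library gave 0 for each silencing comparison. It gave 0 to 1 over differentiation in C2C12 cells at day 3, 1 to 2 at day 6, 2 to 4 in PMs at day 3 and 3 to 4 at day 6. It gave 2 to 3 between siControl PMs and C2C12 cells at day 0, 1 to 4 at day 3 and 3 at day 6, and 0 to 2 for the change from day 0 between cell types at day 3 and 3 at day 6. A lone library was assumed to vary like the other groups.

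The labels do not pair libraries by replicate number. Replicate differences of siControl and siTead1/4 libraries correlated at -0.145, 0.095 and 0.526 in C2C12 cells at days 0, 3 and 6 and at 0.414, 0.441 and 0.537 in PMs. With a replicate block 82, 258 and 12 genes were called after silencing in C2C12 cells and 586, 792 and 290 in PMs, beside 67, 195, 7, 420, 532 and 120. The block within each day and the crossed pairing at C2C12 day 0 (101 genes) were chosen after seeing the data.

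The next ranges are over the settings that keep all libraries of the groups compared. After silencing the genes called ranged from 0 to 480 in C2C12 cells at day 0, 7 to 1055 at day 3 and 0 to 387 at day 6, highest without the filter. In PMs they ranged from 204 to 1247, 312 to 1184 and 0 to 504. The lows in C2C12 cells at days 0 and 3 and in PMs at day 6 came from the 4 libraries of the comparison alone. The PM highs at days 0 and 3 came from the adjusted p at any fold, without the fold threshold of a call. Over differentiation the genes called ranged from 3015 to 6058 and 3335 to 6586 in C2C12 cells and from 3935 to 9494 and 4270 to 9906 in PMs (main 4390, 4761, 5219 and 5734). Each of these highs was at any fold. The day 3 against day 0 effect ranged from 0 to 745 in C2C12 cells (main 0) and 56 to 656 in PMs (main 53). The effect between cell types ranged from 1 to 88, 115 to 853 and 0 to 146 (main 1, 212 and 6), the siControl levels from 2096 to 6794, 2353 to 7754 and 1662 to 6427 (main 4534, 5044 and 4210), and the siControl changes from 1238 to 2333 and 1349 to 2620 (main 1901 and 2150). The highs of the siControl levels were also at any fold. Without 1 library the silencing counts ranged from 0 to 113, 2 to 429 and 0 to 2 in C2C12 cells and from 155 to 207, 240 to 452 and 35 to 78 in PMs, with 429 without C2C12 siTead1/4 day 3 replicate 1.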

Other observations

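Some genes of other lists were called after silencing. In C2C12 cells at day 3 of silencing the embryonic myosin Myh3 fell by 2.47 ± 0.45 on the log2 scale (adjusted p = 0.0336 in edgeR), from a mean of 6633 to 1222 CPM, the only called gene of 10 muscle genes in any silencing comparison by edgeR with filtered counts. The other 9 muscle genes also had estimates below 0 in that comparison, with a median of -0.90 over the 10. The cyclin Ccnd1 rose in C2C12 cells at day 3 (1.34 ± 0.26, adjusted p = 0.0405) and in PMs at day 3 (1.10 ± 0.27, adjusted p = 0.0361), and no other of 10 proliferation genes was called. In C2C12 cells at day 3 Ccnd1 was the only gene of the 10 with an estimate above 0, and the median was -0.44. In PMs at day 3 all 10 had estimates above 0, with a median of 0.12. Over differentiation Tgfb2 rose in siControl C2C12 cells by 1.96 at day 3 (adjusted p = 0.000425) and by 2.12 at day 6 (adjusted p = 0.000242).

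Of the markers of other cell types, Tek rose in silenced PMs at day 0 (1.5 ± 0.28, adjusted p = 0.0115) and Vwf at day 3 (1.75 ± 0.37, adjusted p = 0.0208), both from the endothelial list. Of the 6 endothelial markers, 6 had estimates above 0 in PMs at day 0 (median 0.47) and 2 at day 3 (median -0.63). The fibroblast markers Dcn (-2.46 ± 0.39, adjusted p = 0.0184) and Lum (-2.79 ± 0.50, adjusted p = 0.0290) fell in silenced PMs at day 6. Of the 7 fibroblast markers tested there, 1 had an estimate above 0 (median -0.28). At that day Dcn had a mean of 52.3 CPM in siControl and 9.49 CPM in siTead1/4 cells. None of the myogenic, macrophage, Schwann or mural markers was called in any silencing comparison.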
